A study of Homo sapiens with 18 samples.

Results

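Cytosolic ribosomal protein genes were followed in WT and USB1 mutant human embryonic stem cells (hESCs) as the cells were taken through hematopoietic differentiation. The genes were chosen by name, as the protein-coding RPL, RPS, RPLP and RPSA genes of the large and small subunits and not by any measured value. Earlier results of these data were known when the choice was made. The choice gave 81 of the 35168 genes in the tables, 49 of the large subunit and 32 of the small subunit. Of these, 76 encode the standard proteins and 5 are close paralogues (RPL3L, RPL10L, RPL36AL, RPL39L and the Y-linked RPS4Y1, which is counted but whose level is not given). RPL7A belongs to the same class and was not analysed here.

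USB1 is the RNA exonuclease that trims the 3′ tail of U6 small nuclear RNA, and its loss is known from poikiloderma with neutropenia, a bone marrow failure syndrome. The 18 libraries were total RNA depleted of ribosomal RNA, with 3 libraries for each genotype at D0 (undifferentiated hESCs), D16 (CD34+/CD45+ hematopoietic progenitors) and D30 (mature blood cells). WT, which the labels also call control, is the unedited H1 line, and the USB1 mutant carries in that line a deletion of a single A, made by CRISPR/Cas9 with a donor oligonucleotide and manual picking of colonies. How many picked colonies stand behind the mutant libraries, and whether libraries of a group came from separate cultures, are not given in the sources used here, so the p-values measure only the spread between these samples, which may be technical. The question was how the messages of the translation machinery changed along this path, and whether they differed with genotype at each day.

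Ribosomal proteins are made in near-equal numbers, assemble on ribosomal RNA in the nucleolus and end up in the subunits that decode messenger RNA (small) or form peptide bonds (large). Most of their messages share a 5′ terminal oligopyrimidine (TOP) tract, a C at the first base followed by a run of pyrimidines, through which mTOR signaling and LARP1 control their translation and stability together. Red cell precursors are known to be unusually sensitive to ribosomal protein loss: partial loss of RPS19, RPL5, RPL11 and several others causes Diamond-Blackfan anemia. Maturing red cells lose their ribosomes as they finish differentiation.

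Total estimated counts per library lay between 4125125 and 19368927, the lowest in USB1 mutant D30 replicate 3. The labelled stages were checked on marker genes. The summed level of 5 hESC markers was 2709 to 3288 TPM (transcript abundance corrected for length and scaled to a fixed library total) at D0 and 23.9 to 71.5 TPM at D16, and the 6 progenitor markers summed to 12 to 28.5 TPM at D0, 793 to 1140 TPM at D16 and 496 to 798 TPM at D30. The progenitor sums of D16 and D30 overlap, and these days were separated by the 7 erythroid markers, at 1057 to 4536 TPM and 43003 to 189445 TPM. USB1 RNA did not pass the test between genotypes, with edgeR adjusted p of 0.623, 0.668 and 0.432 at D0, D16 and D30. It was at 84.4 ± 14.4 TPM in WT and 82.9 ± 4.46 TPM in USB1 mutant at D0 (SD, n = 3 each). At D16 it was at 48.0 ± 11.3 and 49.5 ± 7.10 TPM, and at D30 at 71.2 ± 14.5 and 45.5 ± 14.1 TPM. The D30 ranges overlapped (58.2 to 86.8 TPM in WT and 31.0 to 59.1 TPM in USB1 mutant). A single-base deletion need not lower the RNA, so this does not check the genotype labels.

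The starts of the genes are shown first because the TOP tract is what the class has in common beyond its proteins. Windows of 30 bases, from 10 before the annotated start to 20 from it on, were read from RefSeq promoters of GRCh38.p14 on the strand of each gene, and capitals mark the run of C and T that opens the transcript. These are the starts of members on which the results below turn, RPL18, RPS14 and RPS19 for D30, RPL28 for D0, and RPS27, RPL39 and RPL36A for levels and paralogue pairs.
RPL18 (chr19:48619159-48619188, minus strand): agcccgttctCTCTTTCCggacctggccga
RPS14 (chr5:150449720-150449749, minus strand): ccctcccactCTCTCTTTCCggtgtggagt
RPS19 (chr19:41860245-41860274, plus strand): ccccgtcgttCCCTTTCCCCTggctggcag
RPL28 (chr19:55385922-55385951, plus strand): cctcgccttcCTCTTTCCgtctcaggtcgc
RPS27 (chr1:153990752-153990781, plus strand): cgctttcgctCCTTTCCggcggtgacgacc
RPL39 (chrX:119791611-119791640, minus strand): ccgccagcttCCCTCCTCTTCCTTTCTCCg
RPL36A (chrX:101391001-101391030, plus strand): ctcgcggtttCTTTCTTTCCgcgccgatag
The tract runs from 7 bases in RPS27 to 19 in RPL39, and in RPL18 and RPL28 it is the same 8 bases.

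Not every member opens this way at its annotated start. The next 5 starts are shown for contrast: RPL36AL, whose run is 3 bases, and 4 members with no C at the first base.
RPL36AL (chr14:49620607-49620636, minus strand): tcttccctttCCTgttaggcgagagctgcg
RPL10L (chr14:46651762-46651791, minus strand): gtagttaagagagcgcattttgacttcgag
RPL9 (chr4:39458903-39458932, minus strand): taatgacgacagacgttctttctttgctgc
RPS26 (chr12:56041908-56041937, plus strand): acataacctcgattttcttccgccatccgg
RPS28 (chr19:8321486-8321515, plus strand): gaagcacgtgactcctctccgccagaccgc
Of the 64 members with an entry, 46 (71.9%) had a C at the first base followed by at least 4 bases that were each C or T, against 1404 of all 27305 genes in the table (5.14%). Allowing the tract to begin within 5 bases of the annotated start gave 54 members (84.4%) and 25.2% of all genes. The tract stood at the start in 8 of 9 other translation genes known as TOP messages, in 3 of 24 ribosome biogenesis factors and in 6 of 69 mitochondrial ribosomal protein genes. A match describes letters in a window, and annotated starts can lie some bases from those used in these cells.

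The ribosomal protein genes took up a large part of the transcriptome at D0 and D16 and a much smaller part at D30. In WT cells they held 16.3% ± 1.33 of all TPM at D0, 15.9% ± 1.98 at D16 and 4.87% ± 0.359 at D30 (SD, n = 3 each). In USB1 mutant cells the shares were 17.1% ± 0.344, 18.1% ± 0.953 and 4.89% ± 0.856. The libraries of the D30 groups lay between 3.92 and 5.55%, with no overlap with any D0 or D16 library, which lay between 13.7 and 19.1%. Large subunit genes summed to 1.28 to 1.46 times the TPM of small subunit genes in every library, so the balance between the subunits moved far less than their level. Because these are bulk samples, fewer cells that express the genes and less of their RNA in each cell cannot be told apart.

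**Figure D1:**
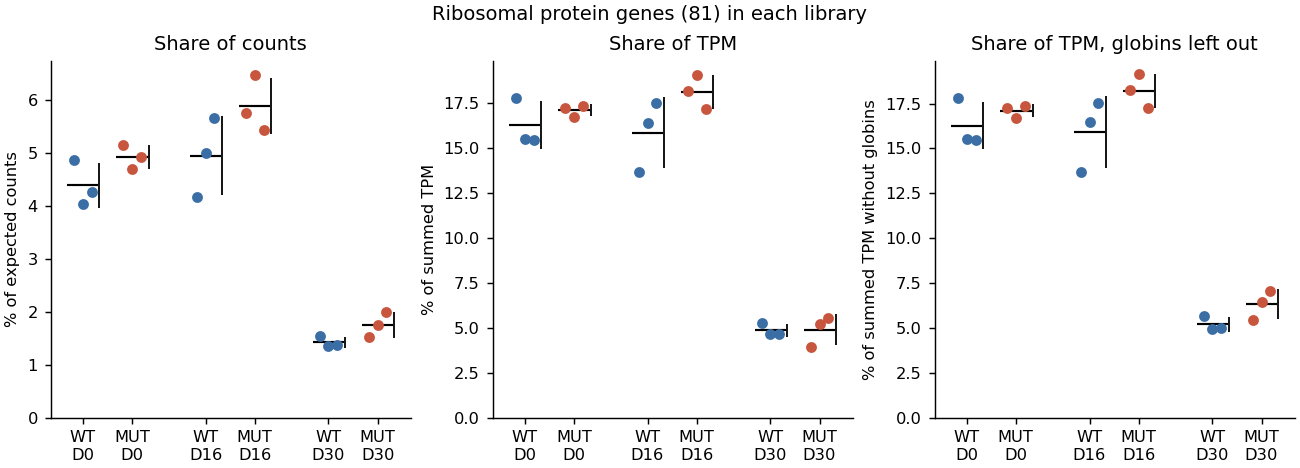
Summed level of the 81 ribosomal protein genes in each library by genotype (blue, WT; red, USB1 mutant, marked MUT) and day, as a percentage of expected counts, of TPM and of TPM without globins, with group means (bars) and SD (vertical lines). In the panel of TPM the 12 libraries of D0 and D16 sit between 13.7 and 19.1% and the 6 of D30 between 3.92 and 5.55%.

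Individual members spread widely although their proteins are needed in near-equal numbers. Averaged over the 18 libraries, the highest levels were those of RPS27 (4620 TPM), RPL41 (4317 TPM), RPS2 (3461 TPM), RPS29 (3263 TPM) and RPS18 (2872 TPM). RPS27, RPL41 and RPS29 encode some of the smallest proteins of the ribosome. Between 57 and 61 of the 76 standard members were within 2-fold of their group's median, which was 2010 TPM in WT and 2050 TPM in USB1 mutant at D0, 1984 and 2279 TPM at D16, and 582 and 545 TPM at D30. The coefficient of variation among members was 0.529 to 0.597 in the 6 groups. The order of the members changed little. Across the 76 genes, Spearman's rho between groups was 0.82 to 0.99 over 15 pairs of groups, a description across genes that share length and base composition and are not independent replicates.

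**Figure D2:**
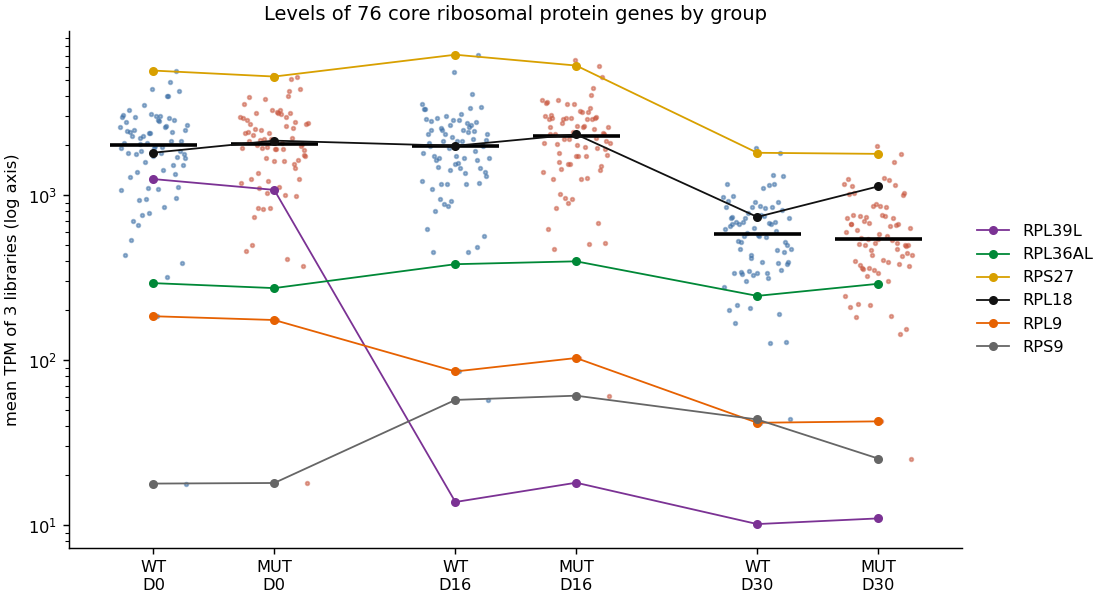
Mean TPM over 3 libraries (log axis) of the 76 standard ribosomal protein genes in each group, each dot a gene and the thick bar their median, with lines following RPS27, RPL18, RPL9, RPS9 and the paralogues RPL36AL and RPL39L. Medians go from 2010 and 2050 TPM at D0 to 582 and 545 TPM at D30 (WT and USB1 mutant, marked MUT), RPL39L leaves the range of the class after D0, and RPL9 and RPS9 lie far below throughout.

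At the low end stood RPL36AL (313 TPM), RPL9 (105 TPM), RPS9 (37.2 TPM), RPL10L (1.33 TPM) and RPL3L (0.396 TPM). RPL10L and RPL3L are tissue-restricted paralogues, of testis and of striated muscle. RPS9 and RPL9 are standard proteins of the small and the large subunit. Near-identical copies can divide reads in quantification, and the part of this in their low values was not tested. RPS9 also varied most between replicates, with 14.5, 144 and 13.4 TPM in the WT D16 libraries, and its values are uncertain. Pseudogenes named after a member, 1493 rows in all, held more than 10% of the summed counts for 2 members and more than 1% for 12. RPL23A had the largest such share, 39.7%, against 1.40% for RPL9, 0.0214% for RPS9, 0.0516% for RPL18 and 0.124% for RPS19.

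From D0 to D16 most members rose moderately in counts scaled so that most genes align between libraries (TMM), while single genes fell steeply. On TPM the median of the standard members went from 2010 to 1984 in WT and from 2050 to 2279 in USB1 mutant cells. The rise in WT thus depended on the scale. In WT cells, 53 of 81 members rose and 5 fell (edgeR quasi-likelihood test over 18 libraries, adjusted p under 0.1), where 37.0% and 39.3% of all genes did so. The groups had no overlap in the upward direction for 34 members, against 36.5% of all genes, and in the downward direction for 6, against 38.8%. The median log2 change was 0.44, against -0.04 over all genes. In USB1 mutant cells, 49 members rose and 4 fell, with all-gene shares of 36.9% and 36%, and the median was 0.38. The count rested on single replicate numbers: without the libraries numbered 2, 25 members rose in WT and 13 in USB1 mutant cells, and without those numbered 3, 33 and 49. In the mutant 54 members were without overlap upward and 5 downward, against 37.7% and 37.2% of all genes. Of the 58 members called in WT and the 53 in USB1 mutant cells, 49 were called in both.

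Among those that rose were proteins of several parts of the ribosome. RPLP1, an acidic protein of the stalk that recruits translation factors, was at 487, 463 and 526 CPM (counts scaled to library size, with TMM factors) in the WT D0 libraries and at 843, 1045 and 907 CPM in the D16 libraries. The groups were far apart, and the log2 change was 0.92 ± 0.13 (SE) with adjusted p = 6.13e-06. RPL3, at the peptidyl transferase center, rose from 1326 ± 77.8 to 2307 ± 206 CPM in WT (log2 0.80 ± 0.12) and from 1531 ± 58.1 to 2346 ± 195 CPM in USB1 mutant cells (log2 0.62 ± 0.12; adjusted p = 0.000162). RPL13A, also known for translational silencing in interferon-treated monocytes, rose by 0.94 and 0.88 on the log2 scale in WT and USB1 mutant cells. RPS23, in the decoding center, rose by 0.90 in the mutant (311 ± 28 to 581 ± 85.8 CPM). RPS9 passed the test with log2 changes of 1.57 and 1.36, but single libraries carried this: WT D16 replicate 2 was at 59.5 CPM and its replicates at 11.2 and 10.7 CPM.

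The members that fell included RPL8, RPL9 and the paralogues RPL10L and RPL39L. RPL8, which contacts the large ribosomal RNA near the peptidyl transferase center, went from 1261, 1122 and 1251 CPM to 767, 856 and 949 CPM in WT. No D16 library reached the lowest D0 library, and the log2 change was -0.50 ± 0.13 (adjusted p = 0.00238), with -0.62 ± 0.13 in USB1 mutant cells. RPL9 fell by 0.89 and 0.68 in WT and USB1 mutant cells. Members with the tract at their start had a median log2 change of 0.50 in WT (33 of 46 rose, none fell) and those with another start 0.36 (11 of 18 rose, 3 fell); the difference was not tested.

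In WT cells RPL39L showed the largest change of the class. It is a paralogue of RPL39, which lines the peptide exit tunnel, and is known from testis and pluripotent cells. Its level was 871, 1249 and 1634 TPM in the WT D0 libraries and 809, 1254 and 1165 TPM in the USB1 mutant D0 libraries. At D16 it was at 13.6, 13.2 and 14.6 TPM in WT and 22.8, 18.1 and 13.2 TPM in USB1 mutant cells. All 6 libraries of each day lay far from those of the other, and the log2 change in CPM was -6.07 ± 0.34 in WT (adjusted p = 1.89e-11) and -5.68 ± 0.33 in the mutant (adjusted p = 3.78e-11). The difference between the genotypes' changes, 0.39 ± 0.42, did not pass the test (adjusted p = 0.675).

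As a share of the RPL39 and RPL39L pair, RPL39L made up 34.6% ± 11.2 in WT and 32.8% ± 6.27 in USB1 mutant cells at D0 (SD, n = 3), 0.617% ± 0.0970 and 0.741% ± 0.155 at D16, and 1.66% ± 0.755 and 2.57% ± 1.83 at D30. RPL39 itself was at 2387 ± 476 TPM in WT at D0 and 2252 ± 321 TPM at D16, and its log2 change in CPM of 0.43 ± 0.25 did not pass the test (adjusted p = 0.14). The paralogues share coding sequence, so how the quantification divided reads between them bears on these shares.

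The other paralogue pairs moved less or at trace levels. RPL36AL, an autosomal copy of the X-linked RPL36A, rose from 79.1, 69.6 and 76.1 CPM at D0 to 117, 142 and 153 CPM at D16 in WT cells (log2 0.87 ± 0.14, adjusted p = 1.59e-05) and by 0.82 in USB1 mutant cells. Its share of the pair was 12.6% and 12.3% at D0, 16.5% and 15.4% at D16, and 36.4% and 39.1% at D30 in WT and USB1 mutant cells. It thus held a growing part of the pair's TPM in both genotypes, while RPL36A fell from D16 to D30 by 2.19 on the log2 scale in WT and by 1.82 in USB1 mutant cells. RPL10L was at 2.09, 1.27 and 1.13 CPM in WT at D0 and at 0.120, 0 and 0.368 CPM at D16 (log2 -3.15 ± 0.75, adjusted p = 0.00138). In USB1 mutant cells RPL10L had 0 counts in all 3 D16 libraries, at least 10.9-fold lower than at D0, counting the group at a floor of 3 counts. Outside the class by name, RPL22L1 held 29.6% and 31.7% of its pair with RPL22 at D0, 23.4% and 34.3% at D16 and 22.4% and 16.1% at D30 in WT and USB1 mutant cells. RPS27L held 2.53% and 3.24%, 1.44% and 1.94%, and 4.39% and 6.79% of its pair with RPS27.

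**Figure D3:**
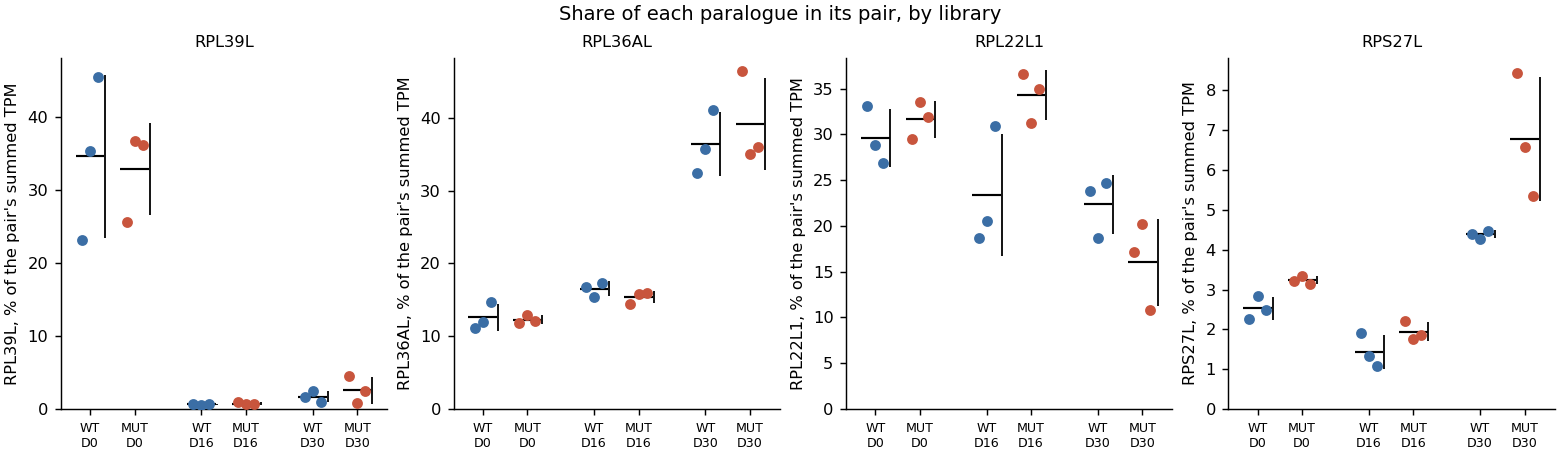
Share of the paralogues RPL39L, RPL36AL, RPL22L1 and RPS27L in the summed TPM of their pairs in each library by genotype (blue, WT; red, USB1 mutant, marked MUT) and day, with group means and SD. RPL39L makes up 34.6% and 32.8% of its pair at D0 and 0.617% and 0.741% at D16, and RPL36AL goes from 12.6% and 12.3% at D0 to 36.4% and 39.1% at D30.

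From D16 to D30 the class fell nearly as a whole. In WT cells 77 of 81 members fell and 1 rose, where 35.1% and 31.6% of all genes did so, and the median log2 change was -1.87 against -0.02 over all genes. For 78 members the WT groups had no overlap in the downward direction, against 33.9% of all genes, and for 1 in the upward direction, against 31.2%. In USB1 mutant cells 76 fell and 1 rose, with all-gene shares of 35.1% and 34.7%, and the median was -1.71. Downward, 76 members were without overlap, against 33.5% of all genes, and upward none, against 30.7%. The standard members were a median 3.74-fold lower in WT, up to 5.38-fold, and 3.35-fold lower in USB1 mutant cells, up to 5.03-fold. All 77 members called in the mutant were among the 78 called in WT. The 19 genes known from Diamond-Blackfan anemia all fell in both genotypes.

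RPL3 illustrates the step. It stood at 2175, 2202 and 2544 CPM in the WT D16 libraries and at 531, 539 and 500 CPM in the D30 libraries, and the log2 change was -2.14 ± 0.12 (adjusted p = 1.63e-10). RPLP0, the scaffold of the stalk, fell from 2100 ± 269 to 484 ± 4.11 CPM (-2.12 ± 0.13), RPSA, a protein of the small subunit also named as a laminin receptor, from 1300 ± 199 to 310 ± 27.9 CPM (-2.07 ± 0.13), and RPS6, the target of S6 kinase, from 1461 ± 174 to 295 ± 37.8 CPM (-2.31 ± 0.14). RPS4X, the X-linked member of its pair, fell by 2.43. In USB1 mutant cells the same step took RPSA from 1510 ± 139 to 355 ± 27.3 CPM (-2.09 ± 0.13) and RPL10A from 527 ± 71.6 to 118 ± 10.3 CPM (-2.16 ± 0.15). Large and small subunit members had medians of -1.87 and -1.93 in WT and -1.69 and -1.81 in USB1 mutant cells.

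A few members stood apart from this fall. RPL36AL decreased by 0.82 in WT (adjusted p = 5.32e-05), and in USB1 mutant cells it was at 133, 143 and 124 CPM at D16 and 121, 93.8 and 138 CPM at D30, with overlapping groups and adjusted p = 0.233. RPL39L, already low, had log2 changes of -0.58 and -0.53 that did not pass the test. RPS9, whose values are uncertain, had 0.15 in WT and -0.42 in USB1 mutant cells. RPL10L, at 0 to 6 counts per library, had 0.34 and 2.21. Neither gene passed the test in either genotype. RPL3L, the muscle paralogue of RPL3, was the member called higher in both genotypes, with log2 2.06 ± 0.62 in WT (adjusted p = 0.0085) and 1.42 ± 0.65 in USB1 mutant cells (adjusted p = 0.0651), but no group mean exceeded 0.706 TPM and its libraries held between 1 and 17.9 counts.

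**Figure D4:**
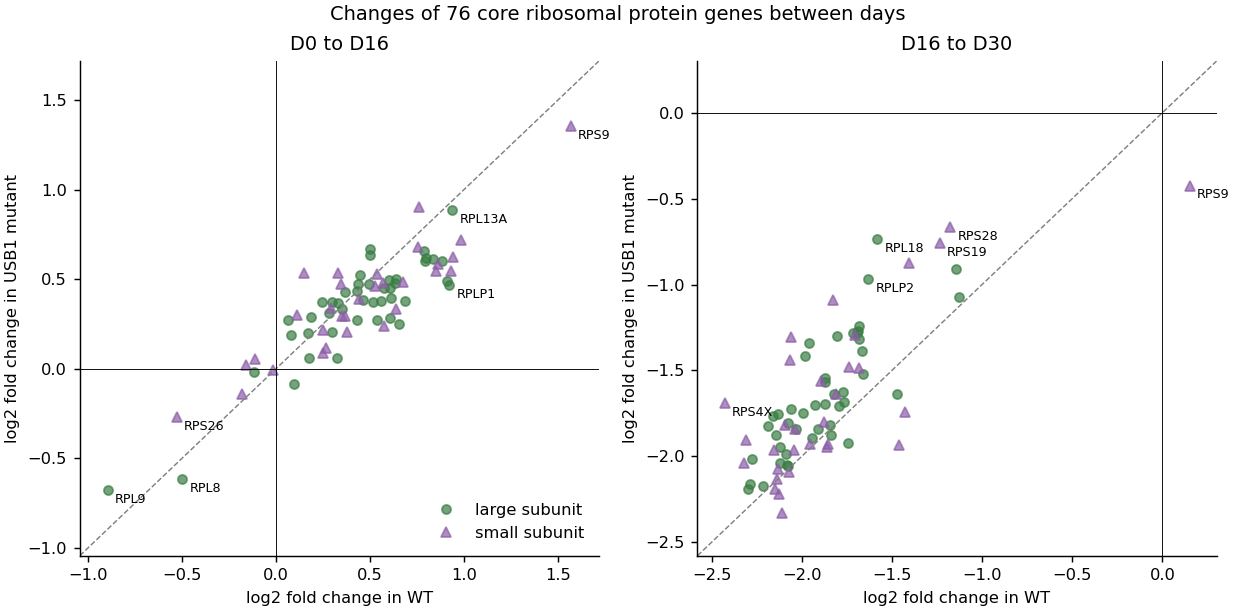
Log2 change of each of the 76 standard ribosomal protein genes in USB1 mutant cells against that in WT cells, from D0 to D16 (left) and D16 to D30 (right), with circles for the large and triangles for the small subunit and a dashed line where both are equal. Most points lie above 0 in both genotypes in the first step, with RPL8 and RPL9 below, and all but RPS9 lie well below 0 in the second.

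Between genotypes at D0, few members passed the test. Of 80 members tested, 3 were called higher in USB1 mutant cells and none lower, where 1.07% and 1.87% of all genes were, and none was called on TPM or in the fit over 18 libraries. The difference was positive in 76 members, with a median log2 of 0.19 against 0.00 over all genes. Genes annotated as ribosomal RNA or its pseudogenes held 4.77 to 4.87% of TPM in WT and 5.33 to 9.33% in USB1 mutant libraries at this day, without overlap, and their part in the difference was not tested. The groups had no overlap for 24 members in the upward direction, against 10.9% of all genes, and for 1 in the downward direction, against 10.5%. With the replicate number as a block, which pairs the libraries at this day by their deviations, 32 members were called higher, where 6.04% of all genes were, RPS14 (adjusted p = 0.0394) and RPS19 (adjusted p = 0.0466) among them; without the block these had log2 0.28 and 0.26, with adjusted p of 0.346 and 0.285. At an unadjusted p under 0.05 stood 23 members. In TPM, with log2(TPM + 1), the members' median was 0.07 and that of all genes -0.10.

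RPL28 had the largest difference of the called members. RPL28, a large subunit protein at chr19:55385932-55403250 (GRCh38), was at 285, 261 and 267 CPM in WT and 417, 344 and 349 CPM in USB1 mutant libraries, which did not overlap (log2 0.45 ± 0.10, adjusted p = 0.0679). RPL28 lost its call in 10 of the alternative analyses, among them every omission of a single library except WT replicate 1.

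RPL28 lies on chromosome 19, which holds 12 members, more than any other chromosome. The chromosome 19 members had a median log2 difference of 0.34 (12 of 12 positive) and the other 68 tested had 0.16 (64 positive). Chromosome 19 genes outside the class also sat higher in USB1 mutant cells, with a median of 0.13 over 1054 genes (767 positive), against -0.01 for the other chromosomes. GC content moved along with the difference at D0: Spearman's rho between a gene's log2 difference and the GC of its transcript was 0.60 across the 80 members and 0.35 across 14689 genes, as descriptions across genes measured in the same 6 libraries. At D16 the values were -0.23 and 0.03, and at D30 they were 0.20 and 0.14. The part of GC content and of chromosome in the calls was not tested. The members also moved as a block within a group: WT replicate 1 was the highest WT library for 71 of 80 members and USB1 mutant replicate 2 the lowest mutant library for 64, so the members do not count as separate observations.

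At D16 no member passed the edgeR quasi-likelihood test between genotypes. Of 79 members tested, none was called higher or lower, where 13.1% and 15.3% of all genes were. DESeq2 called 1 higher and 1 lower, and 1 member had an unadjusted p under 0.05. The median log2 difference was 0.09, with 58 members positive, and no member was without overlap in the upward direction and 1 in the downward, against 18.6% and 19.5% of all genes. The members' counts thus stood below the background of the day.

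The member with the smallest p was RPLP1, at 839, 1018 and 874 CPM in WT and 637, 833 and 613 CPM in USB1 mutant libraries. The groups did not overlap, and the log2 difference was -0.39 ± 0.16 with adjusted p = 0.106. RPS29, a small subunit protein, had 149, 243 and 288 CPM against 297, 382 and 269 CPM (log2 0.48 ± 0.22, adjusted p = 0.157). RPS26, which sits at the messenger RNA exit channel, had 123, 133 and 197 CPM against 178, 196 and 209 CPM (log2 0.36 ± 0.18, adjusted p = 0.167). In the last 2 genes the groups overlapped. WT replicate 1 was the lowest WT library for 75 of 79 members and WT replicate 3 the highest for 61; without WT replicate 3, 10 members were called higher and 1 lower, with a median of 0.17, and without WT replicate 1 none was called higher and 1 lower, with a median of 0.01 and 40 members positive. Of the 5 granulocyte markers 4 were lower in USB1 mutant cells at D16 (summed 2547 to 5861 TPM in WT and 1515 to 2419 TPM in mutant libraries, none at 0). Of the 7 erythroid markers 3 were higher (1057 to 2051 TPM in WT and 2552 to 4536 TPM in mutant libraries, none at 0), and globin messages held 0.176 to 0.300% and 0.354 to 0.600% of TPM. Genes annotated as ribosomal RNA or its pseudogenes held 1.03 to 2.08% and 2.83 to 3.69%. The 5 hESC markers summed to 23.9 to 37.7 TPM in WT and 57.7 to 71.5 TPM in mutant libraries. Of the 4 tested, 2 were called higher and 0 lower. The 6 progenitor markers summed to 896 to 1140 TPM in WT and 793 to 883 TPM in mutant libraries, with 1 called higher and 3 lower. None of these ranges overlapped, and their part in the D16 values was not tested.

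At D30, 14 of 80 members tested were called higher in USB1 mutant cells and none lower, where 10.8% and 9.75% of all genes were. The summed share of TPM given above was 4.87% in WT and 4.89% in USB1 mutant cells, and without single libraries the count ran from 1 to 26. The difference was positive in 76 members, with a median log2 of 0.35 against -0.01 over all genes, and the groups had no overlap in the upward direction for 33 members, against 17.5% of all genes, and for none downward, against 18.2%. The medians of the large and small subunit were 0.34 and 0.35. Among the called members were RPL18, RPS14, RPS19, RPL38, RPL36AL, RPS16, RPL10, RPL14, RPL13, RPS4X, RPLP2, RPL27A and RPS15. RPL28, called at D0, was not called at D30.

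RPL18 had the largest difference and the smallest p. It is a large subunit protein whose gene is known from Diamond-Blackfan anemia, at chr19:48615328-48619184 (ENSG00000063177), and its tract is printed above. Its libraries were at 200, 224 and 214 CPM in WT and at 398, 384 and 488 CPM in USB1 mutant cells, well separated, with log2 0.99 ± 0.15 and adjusted p = 0.00644. RPL18 kept its call in each of the 19 alternative analyses.

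RPS14 and RPS19 are small subunit proteins, the first known for its haploinsufficiency in a myelodysplastic syndrome and the second as the gene most often mutated in Diamond-Blackfan anemia. RPS14, at chr5:150442635-150449739, was at 131, 104 and 107 CPM in WT and 166, 166 and 202 CPM in USB1 mutant libraries (log2 0.64 ± 0.16, adjusted p = 0.0315). RPS19, at chr19:41860255-41872925, was at 278, 306 and 313 CPM against 478, 436 and 415 CPM (log2 0.57 ± 0.14, adjusted p = 0.0326). In both genes the lowest mutant library was above the highest WT library, and the calls were lost in 3 (RPS14) and 4 (RPS19) of the 19 alternatives. RPL38, which is known for selective translation of Hox messages in the embryo, rose from 55.2 ± 2.87 to 76.2 ± 5.37 CPM (log2 0.46 ± 0.13, adjusted p = 0.0501), and RPL36AL from 74.8 ± 5.95 to 113 ± 22.5 CPM (log2 0.60 ± 0.17, adjusted p = 0.0545). These calls were lost in 8 (RPL38) and 7 (RPL36AL) alternatives.

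Of the 19 genes on the list of the anemia, RPL18 and RPS19 were called, a share near the 10.8% of all genes called higher. RPL5 and RPL11, which together with 5S ribosomal RNA bind MDM2 when assembly fails, had log2 differences of 0.27 (adjusted p = 0.449) and 0.25 (adjusted p = 0.487). RPS26 was at 62.4, 41.7 and 58.8 CPM in WT and 33.1, 46.8 and 77.7 CPM in USB1 mutant cells (log2 -0.06 ± 0.30, adjusted p = 0.913), a spread that covers a change in either direction. RPS24 had a log2 difference of -0.03, RPL35A 0.37 (adjusted p = 0.294) and RPS6 0.35 (adjusted p = 0.188).

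**Figure D5:**
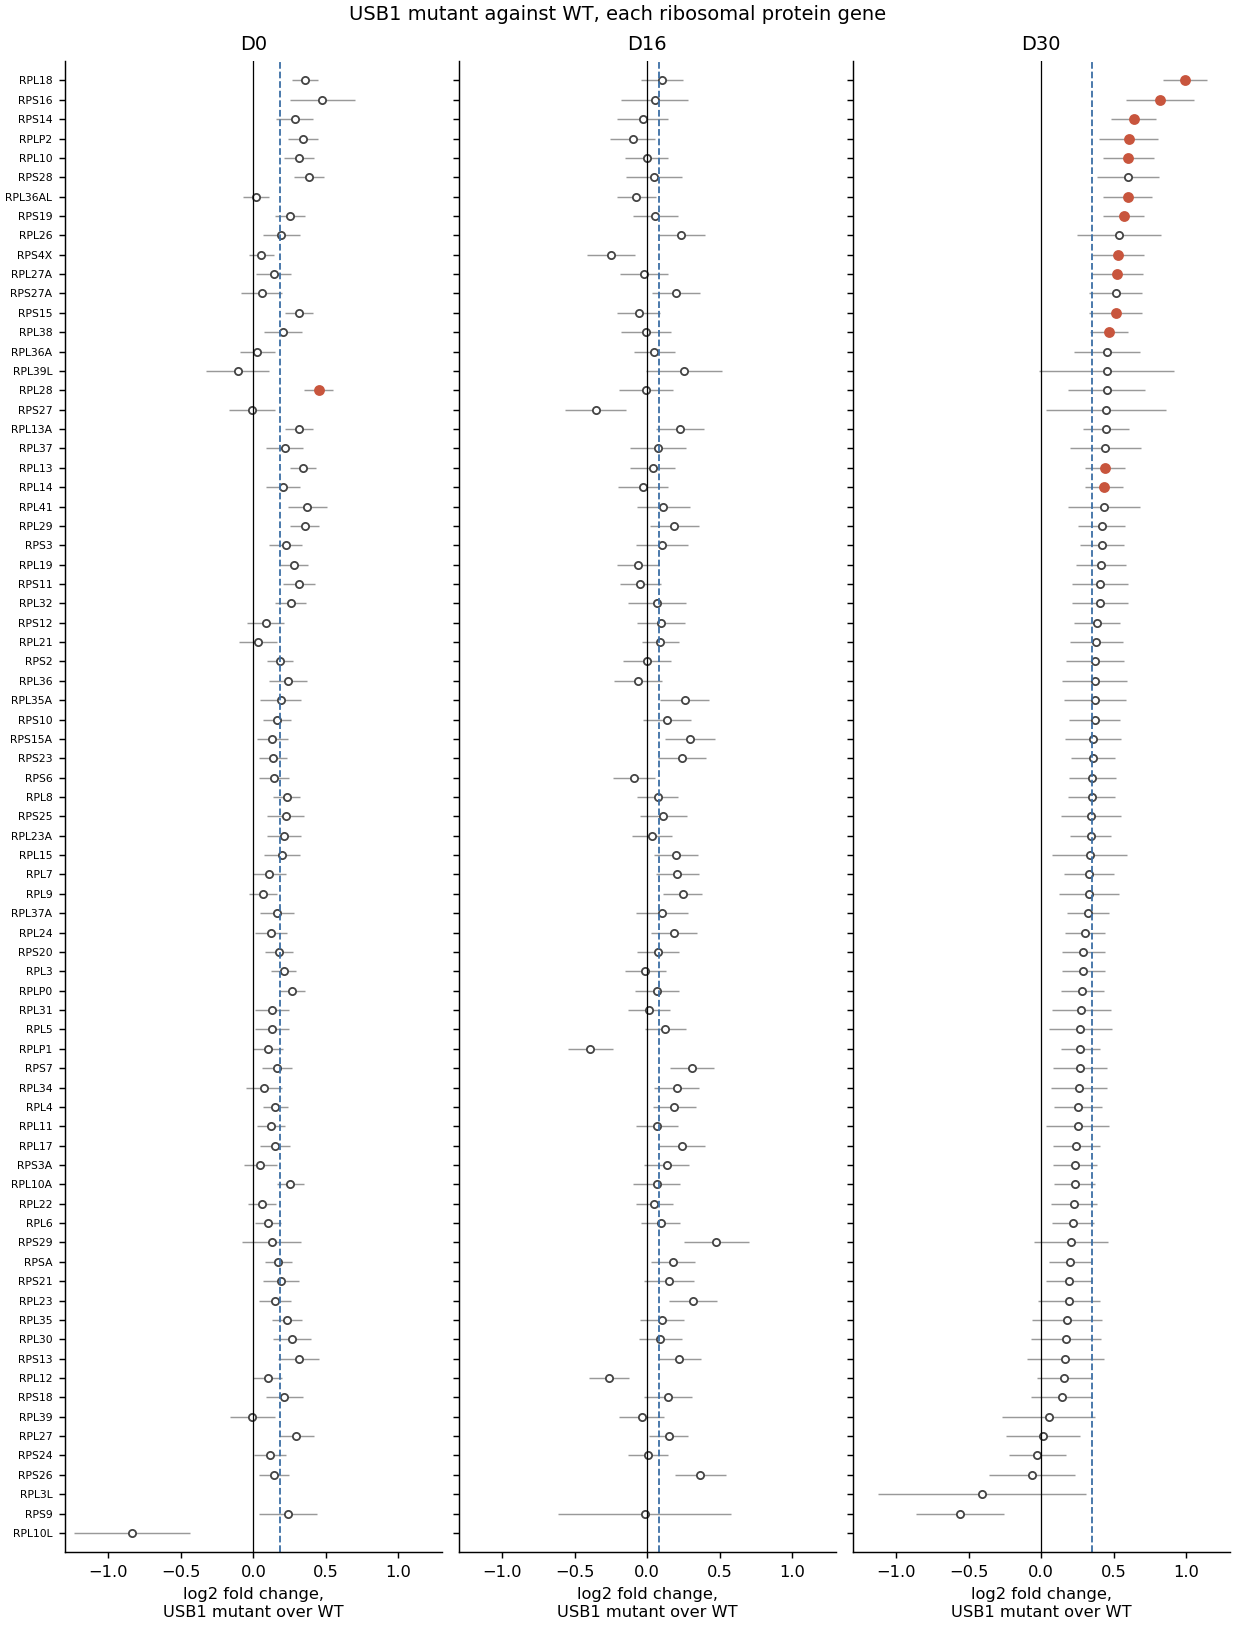
Log2 difference of USB1 mutant over WT for the ribosomal protein genes reported here at D0, D16 and D30, with SE (lines), from the edgeR fits on 6 libraries per day and in the order of the D30 values. Filled points passed the test, and dashed lines mark the medians of the genes shown. The medians of all members tested were 0.19, 0.09 and 0.35. RPL18 stands highest at D30 with 0.99.

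Markers of cell types also differed between genotypes at D30. Of 7 erythroid markers, 6 were higher in USB1 mutant cells and none was at 0. They summed to 43003 to 53088 TPM in WT and 142211 to 189445 TPM in USB1 mutant libraries, and globin messages held 5.51 to 7% of TPM against 19.5 to 27.9%. The 4 macrophage markers summed to 1580 to 2038 TPM against 535 to 1116 TPM, with 2 called lower. The 5 granulocyte markers summed to 148 to 372 TPM against 28.6 to 100 TPM, with 2 of the 4 tested called lower and 0 higher. On the scale of log2(TPM + 1) the members' median was 0.01 and that of all genes -0.24, and with globins left out 0.28 and -0.01. The share of TPM without globins was 5.20% ± 0.417 in WT and 6.32% ± 0.824 in USB1 mutant cells. In these TPM fits 1 member was called with globins in the total and 7 without, where 5.03% and 7.14% of all genes were. With TMM factors computed without members, globins and the 20 most abundant genes, 18 members were called, with a median of 0.37. The part of cell makeup in these differences was not tested.

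Single libraries weighed on the D30 count. USB1 mutant replicate 3, the shallowest library, was the highest mutant library for 68 of 80 members, and without it 3 members were called with a median of 0.19. Without WT replicate 1, 2 or 3 the count was 4, 1 and 2, without USB1 mutant replicate 1 it was 26, and without replicate 2 it was 16.

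The changes between days were then compared between genotypes. From D0 to D16 no member's change passed the edgeR test of the difference, where 3.86% of all genes were called upward and 3.75% downward. Of the members, 1 had an unadjusted p under 0.05 and DESeq2 called 1. Both were RPLP1, for which edgeR gave a log2 difference of -0.45 ± 0.19 (adjusted p = 0.189). From D16 to D30, 7 of 81 members fell less in USB1 mutant cells and none fell more, where 10.3% and 10.2% of all genes were called in these directions, so the upward share stood below the background. The median of the difference was 0.19, and 67 members were positive. Without the libraries numbered 3 the direction turned, with a median of -0.13, 27 members positive and 54 negative.

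RPL18 led again, with a difference of 0.85 ± 0.18 (adjusted p = 0.00479) that passed in all 11 alternatives. RPS4X followed with 0.74 ± 0.22 (adjusted p = 0.0321) and RPLP1 with 0.62 ± 0.19 (adjusted p = 0.0338). RPL36AL, RPLP2, RPL10 and RPS14 were the others. Without the libraries numbered 2, and likewise without those numbered 3, RPL18 alone was called higher. Of the 7, 6 were also called between genotypes at D30, with which this comparison shares its D30 libraries.

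A ribosomal protein gene with another name, FAU, was read the same way. FAU, a fusion of a ubiquitin-like domain with the small subunit protein eS30, rose in WT from D0 to D16 by 0.84 on the log2 scale and fell by 1.34 from D16 to D30, and was higher in USB1 mutant cells at D30 by 0.68 (adjusted p = 0.0312). Among paralogues ending in L that are outside the class, RPS27L was higher at D30 by 0.94 (adjusted p = 0.00878), and RPL22L1 and RPL26L1 were higher at D16 by 0.66 and 0.57 (adjusted p = 0.0734 and 0.0728).

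Other translation genes with TOP messages were counted beside the class. Of 15, 10 rose from D0 to D16 in WT, where 37.0% of all genes did, and all 15 fell from D16 to D30, where 35.1% did. EEF1A1, the factor that delivers transfer RNA, went from 13772 ± 1160 to 3802 ± 251 CPM in that step (log2 -1.86, adjusted p = 3.02e-09). At D30, 4 of the 15 were higher in USB1 mutant cells, against 10.8% of all genes, among them EEF1A1, at 3657 ± 250 CPM in WT and 6503 ± 447 CPM in the mutant (log2 0.83, adjusted p = 0.0168), EIF4B (log2 0.67) and EEF2 (log2 0.74). At D16, TPT1 was the single one called, lower by 0.45 (adjusted p = 0.0625), where 15.3% of all genes were lower.

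Ribosome biogenesis factors, which build the subunits, fell where most members rose. Of 30, none rose and 28 fell from D0 to D16 in WT cells, with a median log2 of -1.24, and 23 fell in USB1 mutant cells, with a median of -0.89, where 39.3% and 36% of all genes fell. NOP56, a core protein of the box C/D particles that guide rRNA methylation, fell by 1.86 on the log2 scale in WT. At D16, where no ribosomal protein gene was called, 15 of the 30 were higher in USB1 mutant cells and none lower, against 13.1% and 15.3% of all genes, with a median of 0.44, NOP56 being at 62.2 ± 18.7 CPM in WT and 139 ± 22.8 CPM in the mutant (log2 1.16, adjusted p = 0.0032). The hESC, progenitor, erythroid, granulocyte, globin and ribosomal RNA values given above also separate the D16 groups. Their part in this difference was not tested. At D0 and D30 edgeR called none of the 30. Of 77 mitochondrial ribosomal protein genes tested, which serve the ribosome of the organelle, 43 fell and 8 rose from D0 to D16 in WT cells (39.3% and 37.0% of all genes), and 46 fell and 8 rose from D16 to D30 (35.1% and 31.6%). At D16, 25 of the 77 were higher in USB1 mutant cells and 2 lower, against 13.1% and 15.3% of all genes, led by MRPS26 (log2 1.44, adjusted p = 0.00299).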

How the data were processed

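Total RNA was depleted of ribosomal RNA, sequenced as paired reads with a strand-specific kit and, per the submitters' processing notes and the study's methods, run through Trimmomatic 0.36 for trimming and Salmon 0.13.1 for quantification on the Ensembl 99 cDNA set of GRCh38. The authors deposited expected counts, TPM and effective transcript lengths per gene and library. Use of strand in quantification is not given in the sources used here. Of 35168 identifiers, 35051 were matched to gene names with GENCODE 44; the other 117 held 0.238% of counts.

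Expected counts as deposited were rounded, filtered with filterByExpr, scaled by TMM and tested with the edgeR 4.0.16 quasi-likelihood test in R 4.3.3, with Benjamini-Hochberg adjustment over all genes and a threshold of 0.1. Genotypes were compared per day over 6 libraries. Changes between days and their differences between genotypes came from 1 fit of 6 groups over 18 libraries. CPM values are scaled among the libraries of each fit. The deposited TPM served to compare levels between genes. Alternatives used DESeq2 1.42.0, limma 3.58.1 and others given below. RPL3L was not tested at D0 and D16, nor RPL10L at D16 and D30, for low counts. On simulated data the tests recovered 87%, 86% and 48% of genes changed by 1 log2 unit, and 25%, 20% and 5% of those changed by 0.5, at D0, D16 and D30.

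Replicate numbers are shared between genotypes. Deviations from the group means of same-numbered libraries correlated at 0.457, 0.278 and 0.467 at D0, where every pair was over 0.1 and the block is given beside the result. The pairing was taken from the data, not from the labels.

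The members, companion lists and the rule for naming genes were chosen with earlier results of these data known. Named were the called members with the smallest adjusted p in each comparison (up to 6 per direction between genotypes, 4 between days and 3 for differences of changes), or else the 3 of lowest p, the 5 highest and 5 lowest by TPM, RPS6 and 8 genes of inherited or acquired anemia by name, and 8 paralogue pairs. Some genes that these rules name are counted but not reported here.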

Additional observations from a re-analysis of the deposited data

Results flagged for a closer look

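The fall from D16 to D30 differed between genotypes in 7 members by the test of the difference itself, the interaction of day and genotype in the fit over 18 libraries (edgeR quasi-likelihood test, Benjamini-Hochberg adjustment). In all 7 the fall was smaller in USB1 mutant cells. The differences on the log2 scale were 0.85 for RPL18 (adjusted p = 0.00479), 0.74 for RPS4X (0.0321), 0.62 for RPLP1 (0.0338), 0.63 for RPL36AL (0.0360), 0.66 for RPLP2 (0.0746), 0.57 for RPL10 (0.0770) and 0.63 for RPS14 (0.0867). The share called, 7 of 81, was below the 10.3% of all genes called in this direction. Globin messages held 5.51 to 7% of TPM in WT and 19.5 to 27.9% in USB1 mutant libraries at D30, and their part in these differences was not tested.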

How the results depend on the processing

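The fall from D16 to D30 (76 to 78 members lower in every alternative run, in each genotype) and the rise from D0 to D16 kept their direction. These alternatives all used scaled counts, and TPM was not fitted between days. On TPM the median of the standard members did not rise in WT (2010 at D0 and 1984 at D16). Members called higher at D0 (3 as reported) were 6 with no count filter, 8 by DESeq2, 5 by limma-voom, 32 with the replicate block, and 32 when replicate 1 of both genotypes was left out (added after seeing the data). They were 0 with effective lengths as offsets, on TPM with and without globins, in the fit over 18 libraries and at adjusted p under 0.05, and 0 to 11 when single libraries were left out. At D16 the members called higher (0) were 1 with no count filter, 2 with the block, 1 by DESeq2, 2 on TPM, 3 on TPM without globins and 0 to 10 without single libraries, and those called lower (0) were 1 with the block, 1 by DESeq2, 1 by limma-voom, 2 in the fit over 18 libraries and 0 to 1 without single libraries. At D30 the 14 became 7 with lengths, 1 on TPM, 7 on TPM without globins, 26 in the fit over 18 libraries, 4 at adjusted p under 0.05, 15 with the block and 1 to 26 without single libraries. The replicate numbers at D16 (correlations 0.083, 0.295 and 0.448) and D30 (0.151, -0.137 and 0.433) did not all pair.

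From D0 to D16, 25 to 65 members rose in WT and 13 to 51 in USB1 mutant cells without 1 replicate number, the lowest both without replicate 2. The single member called higher from D16 to D30 was 0 at a minimum of 5 CPM in both genotypes, 0 with lengths and at 0.05 in the mutant, and 0 to 2 (WT) and 0 to 1 (mutant) without 1 replicate number. The difference of changes from D16 to D30 (7 higher, 0 lower) was 3 with lengths, 11 by DESeq2, 4 at 0.05, and 1 to 9 higher and 0 to 1 lower without 1 replicate number, with a median of -0.13 without replicate 3. From D0 to D16, DESeq2 called 1 lower. At D16 the calls with the block were RPS29, RPS26 and RPLP1 (lower), and at D0 it added RPS14 and RPS19 among the named genes; it changed no other call of a named gene.

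Values of uncalled genes changed sign. At D0 on TPM with and without globins these were RPL11 (-1.38e-05 and -0.000458), RPL5 (-0.116 and -0.116, and -0.00792 with lengths), RPS24 (-0.0199 and -0.0204) and RPS6 (-0.00112 and -0.00156). At D16 they were RPS14 (0.0167 with lengths, 0.128 and 0.132 on TPM, 0.0057 over 18 libraries) and RPS24 (-0.0191 with lengths), and without single libraries the values ran from -0.158 to 0.122 for RPS14, -0.0771 to 0.0751 for RPS24, -0.0449 to 0.131 for RPL11 and -0.0495 to 0.186 for RPS19. At D30 on TPM they were RPL11 (-0.0619), RPL5 (-0.0716) and RPS6 (-0.00494), and without single libraries RPL11 ran from -0.0236 to 0.376, RPS24 from -0.204 to 0.139 and RPS26 from -0.426 to 0.18. For each change the cause was not tested. Of the other results, 189 counts and medians were classed as unmoved under the alternatives and 59 as moved, as were 8 further results. Sign and call were kept by 980 gene values, though their size varied, and 44 gene calls were lost and 22 gained. Differences of 0.5 on the log2 scale were mostly missed at D30 in data simulated with the same spread for all genes, not that of the members. The biological coefficient of variation was 0.223 at D30, against 0.130 at D0. The effect of depth was not tested.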

Other observations

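MDM2 and CDKN1A were higher in USB1 mutant cells at D30. Of the 4 listed genes around MDM2, 3 were higher at D30 and 0 lower, where 10.8% and 9.75% of all genes were. At D16, 1 of the 4 was higher and 1 lower. MDM2, the ubiquitin ligase that free RPL5 and RPL11 bind, was at 156 ± 14.0 CPM in WT and 334 ± 22.1 CPM in the mutant (log2 1.10 ± 0.14, edgeR adjusted p = 0.0037). CDKN1A, a cell cycle inhibitor, was at 259 ± 51.9 and 513 ± 26.6 CPM (log2 0.99, adjusted p = 0.0104). CDKN1A was also higher at D0 (log2 0.81, adjusted p = 0.0147). Erythroid, granulocyte and macrophage markers separated the D30 groups, and their part in the D30 values was not tested.

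Of 11 regulators of TOP messages, 3 were higher in USB1 mutant cells at D30 and none lower, where 10.8% and 9.75% of all genes were. LARP1, the protein that binds the cap and tract of TOP messages, was at 447 ± 27.0 CPM in WT and 877 ± 262 CPM in the mutant (log2 0.97 ± 0.22, adjusted p = 0.0227), TSC1, a brake on mTOR, had a log2 difference of 0.65, and RPS6KB2, an S6 kinase, 0.65. At D16, 1 of the 11 was higher and 1 lower, and at D0 none was called. Of 10 chaperones and importers of ribosomal proteins, 5 were higher at D16 and none lower, where 13.1% and 15.3% of all genes were, among them BCCIP (log2 0.63), LTV1 (log2 0.71) and IPO4 (log2 0.69). Erythroid markers separated the genotypes at D16 (1057 to 2051 TPM in WT and 2552 to 4536 TPM in mutant libraries) and at D30 (43003 to 53088 and 142211 to 189445 TPM). Granulocyte markers did so at D16 (2547 to 5861 and 1515 to 2419 TPM) and at D30 (148 to 372 and 28.6 to 100 TPM). The hESC and progenitor markers also separated the D16 groups, with the values given above. The part of these marker sets in these values was not tested.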
